A study of Mus musculus with 12 samples.

Results

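The genes described here are 9 members of the bone morphogenetic protein (BMP) system: the ligands Bmp2, Bmp4, Bmp6, Bmp7 and Gdf5, the secreted antagonist Grem1, and the target genes Id1, Id2 and Id3. They were chosen by name, as the entries of the deposited read-count table that carry these symbols. All 9 were found among the 36875 symbols of the table, and all 9 passed the filter on low counts that left 15049 genes for testing.

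BMP ligands are secreted dimers of the transforming growth factor beta superfamily. They bind paired type I and type II serine/threonine kinase receptors, which phosphorylate SMAD1, SMAD5 and SMAD9, and these enter the nucleus with SMAD4. The ID genes are among their best known direct targets, and ID proteins hold basic helix-loop-helix factors away from DNA. Extracellular antagonists such as gremlin 1 trap the ligands before they reach a receptor. In the joint, GDF5 marks the interzone from which synovium and articular cartilage form, and BMPs act on cartilage and bone.

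RNA was measured by poly(A) sequencing in cultured mouse fibroblast-like synoviocytes, which line the joint cavity and make its fluid and matrix. Homeostasis denotes 4 libraries from animals that drank 5% sucrose water for 3 weeks, described as WT. Inflammation denotes 4 libraries (DOX ON) from animals given doxycycline at 1 mg/ml in 5% sucrose water for 3 weeks. Resolution denotes 4 libraries (DOX OFF) from animals whose doxycycline was stopped after such a course. The protocol shared by all samples names arthritis driven by tumour necrosis factor (TNF). The genotype, the TNF sequence and promoter that doxycycline acts on, the age and sex of the mice and the time after withdrawal are not stated in the labels. Nothing states that the 4 libraries of a group are separate animals or cultures. The p-values therefore describe the spread of these libraries, which may be technical. Both doxycycline groups were compared with the same 4 homeostasis libraries.

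Total counts ran from 18120745 to 34971537 per library, so that a count of 0 allows a level of up to 0.0858 to 0.166 counts per 1e6 (CPM; a limit of 3 counts, for counting error only). The 13 listed fibroblast-like synoviocyte markers, collagens among them, summed to 27131 to 28917 CPM in homeostasis, 19891 to 22167 in inflammation and 10503 to 15506 in resolution, with none at 0. The markers did not move as 1. Against homeostasis 3 rose and 6 fell in inflammation (69.2% passed at an edgeR adjusted p under 0.05, beside 37.2% of all genes). In resolution 3 rose and 8 fell (84.6%, beside 53.3%). Col1a1, the highest in homeostasis, stood at 9560 ± 984, 8150 ± 485 and 3118 ± 1181 CPM in that order of groups. Pdpn stood at 716 ± 117, 729 ± 99.6 and 745 ± 35.5 CPM. The 16 macrophage markers summed to 137 to 174, 672 to 731 and 63.7 to 72.0 CPM in that order of groups, with none at 0. Of 15 tested, 14 rose and none fell in inflammation against homeostasis (93.3%, beside 37.2%). None rose and 10 fell in resolution against homeostasis (66.7%, beside 53.3%), and none rose and 14 fell against inflammation (93.3%, beside 16.2%). The part of these markers in the BMP results was not tested. Of 5 sex-linked genes, none was at 0 in homeostasis, while the Y-linked Eif2s3y, Kdm5d and Uty were at 0 in all inflammation libraries and these and Ddx3y at 0 in all resolution libraries. Sex-linked expression thus divides the libraries as the controls and the doxycycline groups do, and in comparisons against homeostasis the 2 cannot be told apart.

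The genes lie on several chromosomes (GRCm38 coordinates, GENCODE, all protein-coding). Bmp2 (chr2:133552159-133562885), Bmp7 (chr2:172868012-172940321), Gdf5 (chr2:155941023-155945367), Grem1 (chr2:113746164-113758646) and Id1 (chr2:152736251-152737410) share chromosome 2. Bmp4 lies at chr14:46383520-46390669, Bmp6 at chr13:38345107-38500302, Id2 at chr12:25093799-25097140 and Id3 at chr4:136143497-136145755. Promoter sequences (RefSeq, GRCm38.p6) were available for 5 of the 9 genes. For 2 of them, Bmp4 and Grem1, the 250 bases before the start site lay outside the annotated gene span. Those 2 windows are shown (gene strand, 5′ to 3′), and the other genes are left out for that reason. Bmp4 and Grem1 also had the smallest adjusted p-values of the 9 in both comparisons against homeostasis. The Bmp4 window is chr14:46390670-46390919 and the Grem1 window chr2:113758649-113758898, both on the minus strand. Capitals mark matches, on either strand, to 5 motifs: GGCGCC (a GC-rich SMAD element), CAGAC (a SMAD-binding element), TGACG (the core of the cyclic AMP response element), TATAAA (the TATA box) and CANNTG (the E box bound by basic helix-loop-helix factors).
Bmp4: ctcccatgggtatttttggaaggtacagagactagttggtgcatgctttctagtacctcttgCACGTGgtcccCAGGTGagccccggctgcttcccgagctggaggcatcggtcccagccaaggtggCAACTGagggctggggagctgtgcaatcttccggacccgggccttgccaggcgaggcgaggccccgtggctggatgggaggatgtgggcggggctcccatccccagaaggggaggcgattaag
Grem1: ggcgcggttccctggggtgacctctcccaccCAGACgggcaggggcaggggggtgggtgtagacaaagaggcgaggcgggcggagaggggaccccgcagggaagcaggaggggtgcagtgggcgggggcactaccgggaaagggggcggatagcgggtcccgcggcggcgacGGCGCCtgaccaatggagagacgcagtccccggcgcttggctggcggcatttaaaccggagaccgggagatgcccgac

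The Bmp4 window held 3 E boxes, starting at -188, -177 and -123 from the start site, and none of the other 4 motifs. The Grem1 window held GGCGCC at -78 and CAGAC at -219 and none of the other 3. Among 32851 promoter windows of the same length, 66.2% held an E box, 42.2% CAGAC and 9.59% GGCGCC, and 17.8% and 12.4% held TGACG and TATAAA. The GC content was 63.2% for Bmp4 and 72.0% for Grem1, against a median of 52.4% over all windows. A match is a string of letters and no measured site.

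In the inflammation libraries, 3 of the 5 BMP ligand genes (Bmp4, Bmp7 and Gdf5) fell against homeostasis, by 7.50-fold to 16.3-fold, and Grem1 rose 4.00-fold. After withdrawal of doxycycline the same 3 ligands remained lower than in homeostasis, Grem1 remained higher, and Id2 was higher as well. Id1 and Id3 passed the test in no comparison. Of the 9 genes, 1 rose and 3 fell in inflammation against homeostasis, where 37.2% of all genes tested passed (19.0% higher, 18.3% lower). In resolution against homeostasis 2 rose and 3 fell, beside 53.3% of all genes (27.5% higher, 25.8% lower). In resolution against inflammation 3 rose and none fell, beside 16.2% of all genes (8.52% higher, 7.64% lower). The libraries of the groups compared did not overlap for 4, 5 and 3 of the 9 genes in that order, beside 35.4%, 43.5% and 18.9% of all genes. The shares of the 9 genes that passed, 44.4% and 55.6%, are close to those of all genes in the comparisons against homeostasis. With offsets for GC content and gene length, 5 rose and 3 fell in resolution against homeostasis (88.9%, beside 51.3% of all genes), and 2 rose and 1 fell against inflammation (33.3%, beside 15.2%). Median log2 fold changes over the 9 genes were -0.01, 0.03 and 0.46, beside -0.01, -0.01 and 0.02 over all genes. All adjusted p-values are from edgeR's quasi-likelihood test with Benjamini-Hochberg adjustment over all 15049 genes.

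**Figure D1:**
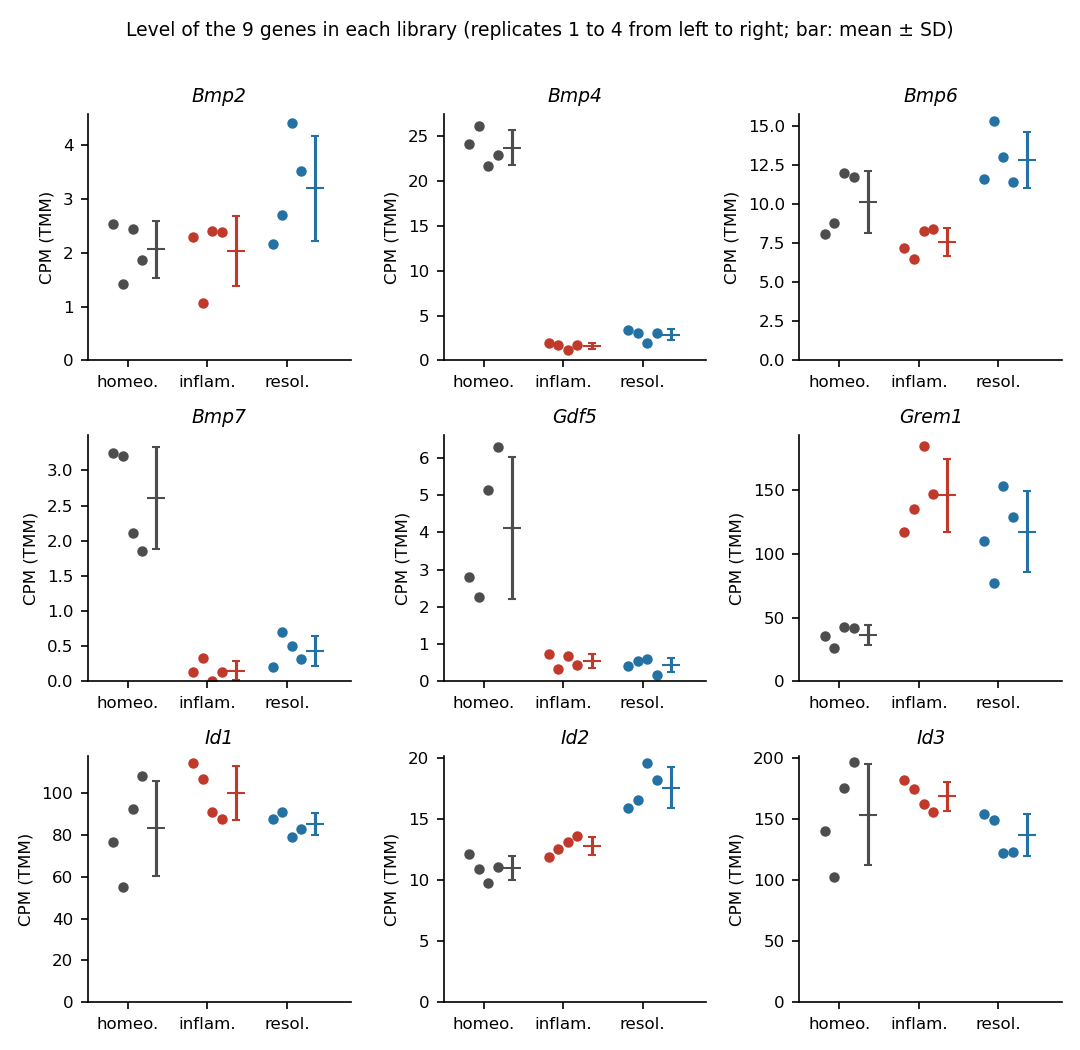
Level of each gene in CPM (vertical axes, linear, starting at 0) in the 12 libraries, with replicates 1 to 4 from left to right and the mean ± SD of each group as a bar. Bmp4, Bmp7 and Gdf5 are high in the 4 homeostasis libraries alone, Grem1 is lowest there, and Id2 is highest in the 4 resolution libraries.

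Bmp4, a ligand of early skeletal and vascular patterning, was the most abundant of the 5 ligand transcripts in homeostasis per exon length. Its 4 homeostasis libraries stood at 24.2, 26.2, 21.7 and 22.9 CPM, the inflammation libraries at 1.96, 1.72, 1.13 and 1.68 CPM, and the resolution libraries at 3.35, 3.04, 1.95 and 3.05 CPM. Every library of both doxycycline groups lay far below every homeostasis library. The mean fell from 23.7 ± 1.92 CPM (SD, n = 4) to 1.62 ± 0.354 in inflammation, a log2 fold change of -3.86 ± 0.21 (SE; edgeR adjusted p = 8.9e-11), or 14.5-fold. In resolution it was 2.85 ± 0.614 CPM, 8.34-fold below homeostasis (-3.06 ± 0.19, edgeR adjusted p = 1.94e-10). Resolution was 1.74-fold above inflammation (0.80 ± 0.21, edgeR adjusted p = 0.0147), with resolution 3 just below the highest inflammation library. That last call was lost without inflammation 3, resolution 1 or resolution 4 (edgeR adjusted p up to 0.0591). Bulk RNA cannot tell fewer cells of a type from less RNA per cell, for this gene or any other here.

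Bmp7, a ligand of kidney and bone development, was scarce in the doxycycline groups. Homeostasis libraries held 64, 104, 37 and 41 counts (3.25, 3.20, 2.11 and 1.86 CPM), inflammation libraries 3, 8, 0 and 3 counts, and resolution libraries 4, 15, 11 and 7 counts. Groups did not overlap between homeostasis and either other group, whereas inflammation and resolution overlapped. The log2 fold change was -4.03 ± 0.52 in inflammation (edgeR adjusted p = 6.55e-06) and -2.57 ± 0.46 in resolution (edgeR adjusted p = 0.0001), both against homeostasis. The inflammation value rests on 14 counts, 8 of them in library 2. It was -4.73 without that library (edgeR adjusted p = 9.24e-06) and ran from -4.73 to -3.61 over the alternatives. Resolution against inflammation gave 1.46 ± 0.59 (95% interval 0.22 to 2.70, edgeR adjusted p = 0.0988) and did not pass.

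Gdf5, the joint interzone ligand, stood at 2.79, 2.28, 5.13 and 6.30 CPM in the homeostasis libraries, at 0.731, 0.328, 0.686 and 0.442 CPM under inflammation and at 0.412, 0.561, 0.590 and 0.185 CPM in resolution. Homeostasis 3 and 4 were higher than homeostasis 1 and 2, the reverse of Bmp7, and all 4 lay above both doxycycline groups. Gdf5 held 358 counts over the homeostasis libraries, 48 over the inflammation libraries and 37 over the resolution libraries. It fell by 2.91 ± 0.39 on the log2 scale in inflammation (7.50-fold, edgeR adjusted p = 1.11e-05) and by 3.21 ± 0.41 in resolution (9.27-fold, edgeR adjusted p = 2.3e-06). Between the doxycycline groups the difference was -0.30 (95% interval -1.27 to 0.67, edgeR adjusted p = 0.675). Gdf5 shares 936 exonic bases with Gm15557 on the opposite strand, and the strand setting of the counts is not given.

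The summed level of chondrocyte markers was lower in both doxycycline groups, as these 3 ligands were, and Col2a1 was the largest part of it in homeostasis. The 13 markers summed to 1032 to 1324 CPM in homeostasis, 203 to 282 in inflammation and 108 to 152 in resolution. Col2a1, the main cartilage collagen, stood at 828 ± 93.9, 2.62 ± 0.500 and 2.73 ± 0.800 CPM in that order. Of 8 tested chondrocyte markers, 5 fell and none rose in inflammation, while 6 fell and 1 rose in resolution, both against homeostasis. These are 62.5% and 87.5%, beside 37.2% and 53.3% of all genes. Col11a1 stood at 182 ± 36.3, 191 ± 40.6 and 58.4 ± 14.8 CPM and did not pass in inflammation (0.07, edgeR adjusted p = 0.787). In resolution against inflammation Comp rose (1.02, edgeR adjusted p = 0.000176) and Col11a1 fell (-1.71, edgeR adjusted p = 2.91e-06). Snorc (listed under 3110079O15Rik) and Matn1 were too low to test, with 4 and 2 counts over the homeostasis libraries, 0 and 2 in inflammation and 0 in resolution. The 9 Schwann cell markers summed to 66.6 to 80.9, 26.8 to 32.3 and 41.7 to 49.9 CPM. Against homeostasis, of 7 tested, 6 fell and none rose in inflammation, and 4 fell and 1 rose in resolution (85.7% and 71.4%). Of 6 tested skeletal muscle markers, 5 fell and 1 rose in inflammation, and 5 fell and none rose in resolution (100% and 83.3%). Their sum was higher in inflammation, at 61.6 to 93.2 CPM beside 43.3 to 53.5 in homeostasis. The part of these marker lists in the ligand results was not tested.

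Bmp6 and Bmp2 did not follow that pattern. Bmp6, a ligand with a known role in iron balance, stood at 8.07, 8.80, 12.0 and 11.7 CPM in the homeostasis libraries, 7.17, 6.51, 8.28 and 8.40 under inflammation and 11.6, 15.3, 13.0 and 11.4 in resolution. Every resolution library lay above every inflammation library, while homeostasis overlapped both. Resolution exceeded inflammation 1.69-fold (0.76 ± 0.17 on the log2 scale, edgeR adjusted p = 0.00578). Against homeostasis the values were -0.42 ± 0.18 in inflammation (edgeR adjusted p = 0.0668) and 0.34 ± 0.17 in resolution (edgeR adjusted p = 0.103), neither of which passed. The first passed without homeostasis 1 (-0.49, edgeR adjusted p = 0.0426) and against homeostasis 3 and 4 alone (edgeR adjusted p = 0.0136). The second passed with offsets for GC content and length (0.71, edgeR adjusted p = 0.000588) and against homeostasis 1 and 2 alone. Bmp6 shares 224 exonic bases with Txndc5 on the opposite strand, and the strand setting bears on it in the same way as for Gdf5. Txndc5 was far more abundant, at 822 ± 90.7, 549 ± 26.7 and 484 ± 69.0 CPM in the order homeostasis, inflammation, resolution. The part of Bmp6 counts that came from Txndc5 was not tested. Txndc5 fell by 0.58 ± 0.13 in inflammation (edgeR adjusted p = 0.00137) and by 0.76 ± 0.13 in resolution (edgeR adjusted p = 5.5e-05), both against homeostasis, and its difference between resolution and inflammation was -0.18 ± 0.13 (edgeR adjusted p = 0.331).

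Bmp2, an inducer of bone and cartilage formation, stood at 2.54, 1.42, 2.45 and 1.86 CPM in the homeostasis libraries, 2.28, 1.06, 2.40 and 2.39 under inflammation and 2.16, 2.71, 4.40 and 3.51 in resolution. All 3 groups overlapped. The inflammation difference was -0.01 ± 0.30 (95% interval -0.64 to 0.62, edgeR adjusted p = 0.984). Resolution differed from homeostasis by 0.65 ± 0.30 (edgeR adjusted p = 0.07) and from inflammation by 0.66 ± 0.29 (edgeR adjusted p = 0.13), and neither passed. The first of these passed without inflammation 2 (0.66, edgeR adjusted p = 0.0466), without resolution 1 (0.80, edgeR adjusted p = 0.0365) and with offsets for GC content and length (0.90, edgeR adjusted p = 0.0168).

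**Figure D2:**
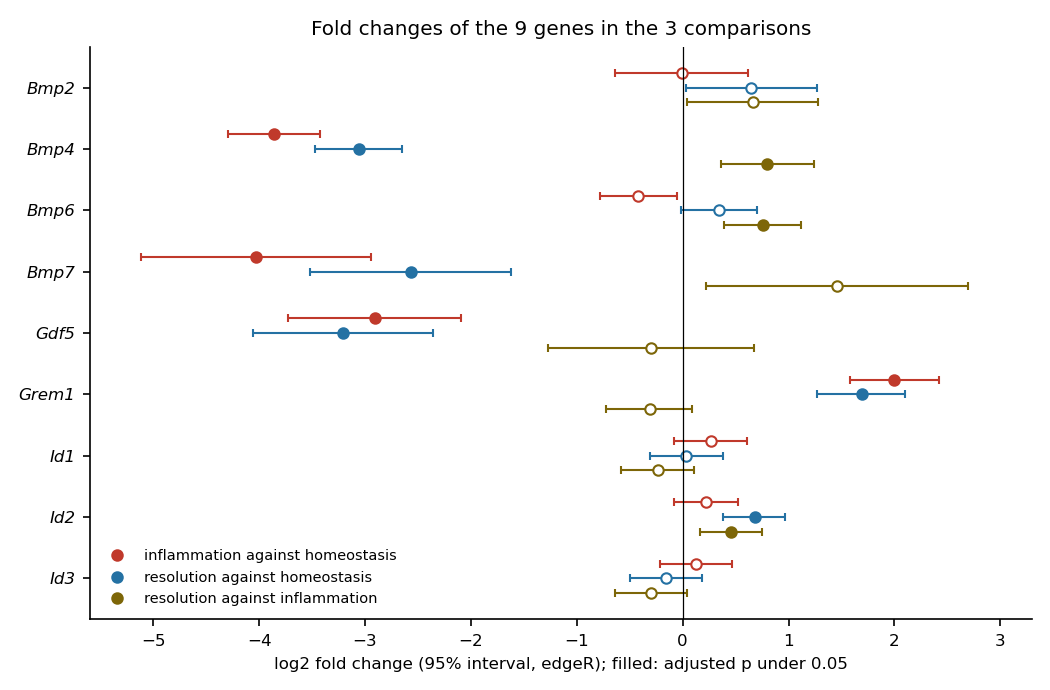
Log2 fold change (horizontal axis) of each gene in the 3 comparisons with its 95% interval, filled where the edgeR adjusted p was under 0.05. Bmp4, Bmp7 and Gdf5 lie to the left in both comparisons against homeostasis and Grem1 to the right, while the intervals of Id1 and Id3 include 0 throughout.

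Grem1 encodes gremlin 1, a secreted antagonist known to bind BMP2, BMP4 and BMP7. It stood at 35.8, 26.0, 42.6 and 42.1 CPM in the homeostasis libraries, 118, 135, 185 and 147 under inflammation and 110.2, 77.7, 154 and 129 in resolution. The 8 doxycycline libraries all exceeded the highest homeostasis library, and the 2 doxycycline groups overlapped. The mean rose from 36.6 ± 7.72 CPM to 146 ± 28.6 in inflammation (2.00 ± 0.20 on the log2 scale, edgeR adjusted p = 2.77e-07). In resolution it was 118 ± 32.0 CPM, 3.22-fold above homeostasis (1.69 ± 0.20, edgeR adjusted p = 1.04e-06). Resolution minus inflammation was -0.31 ± 0.19 (95% interval -0.72 to 0.09, edgeR adjusted p = 0.267). With offsets for GC content and gene length that difference passed (-0.64, edgeR adjusted p = 0.0186).

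Levels per exon length (CPM per kilobase) allow the genes to be compared with each other. In homeostasis the order of group means was Id3 (85.9), Id1 (71.6), Bmp4 (10.6), Grem1 (8.82), Id2 (4.50), Bmp6 (2.60), Gdf5 (1.78), Bmp7 (0.648) and Bmp2 (0.581). Id3 and Id1 overlapped in their libraries, as did Bmp4 and Grem1, Bmp6 and Gdf5, and Bmp7 and Bmp2. In inflammation Grem1 (35.3) stood next after Id3 (94.2) and Id1 (86.1), and Bmp6 (1.95) was the highest of the 5 ligands, ahead of Bmp4 (0.722) and Bmp2 (0.572).

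The 5 ligands summed to 15.5 to 16.9 CPM per kilobase in homeostasis, 2.96 to 3.79 in inflammation and 5.30 to 6.46 in resolution, with no overlap between any of the groups. Bmp4 supplied 59.7 to 72.4% of that sum in homeostasis, 13.9 to 25.9% in inflammation and 14.9 to 28.1% in resolution. Bmp6 supplied 13.3 to 19.1%, 49.6 to 59.1% and 53.9 to 60.8%. Of these 5, the leading transcript was Bmp4 in all 4 homeostasis libraries and Bmp6 in all 8 others. The overlap of Bmp6 with Txndc5 bears on these shares as well. When the 4 other tested ligands (Bmp5, Bmp8a, Bmp8b and Gdf6) were counted too, Bmp5 led in 3 of 4 resolution libraries, at 2.68 to 5.95 CPM per kilobase over the 4 beside 2.93 to 3.93 for Bmp6.

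The ratio of Grem1 to the ligand sum, both per exon length, was 0.390 to 0.636 in homeostasis, 7.66 to 12.4 in inflammation and 2.90 to 6.36 in resolution. Ligand transcripts exceeded gremlin 1 transcripts in every homeostasis library, and the order was reversed in every doxycycline library. Over all 9 tested ligands the sums were 19.6 to 20.4, 6.35 to 6.82 and 11.5 to 14.9 CPM per kilobase, and the ratio of Grem1 to them was 0.313 to 0.507, 4.43 to 6.60 and 1.62 to 2.49. The ratio of Grem1 to Bmp4 alone was 0.538 to 1.07, 32.5 to 89.1 and 13.9 to 42.7. These are ratios of RNA and not of protein, and they carry no test.

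**Figure D3:**
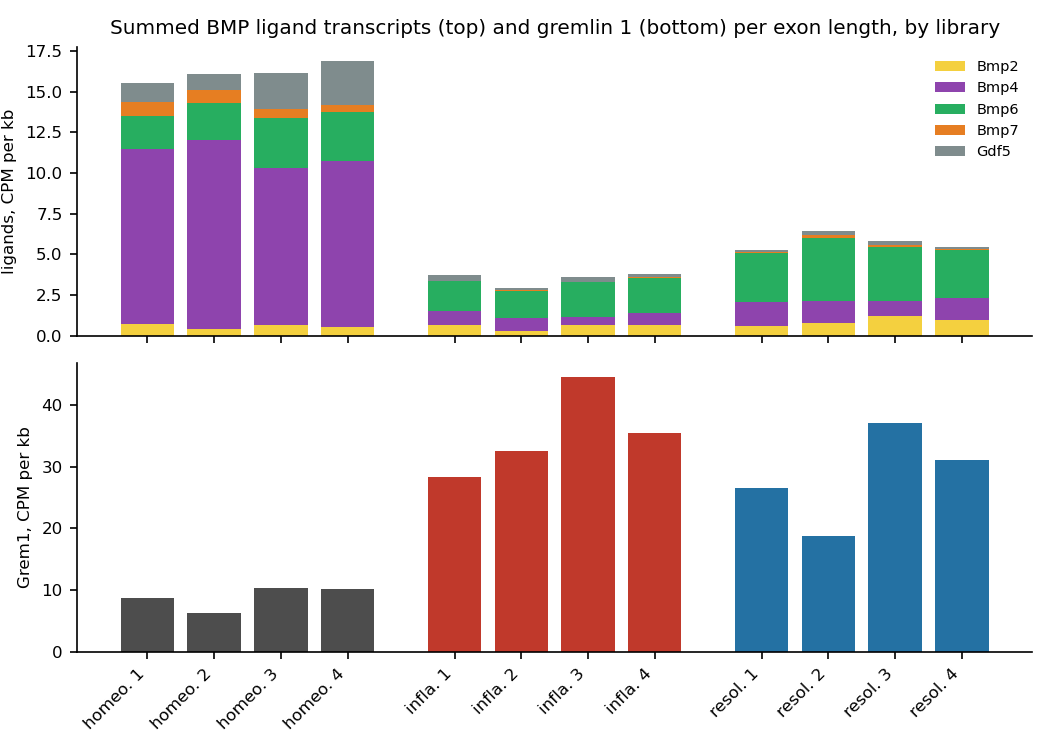
Summed ligand transcripts (top, stacked by gene) and Grem1 (bottom) in CPM per kilobase of exon for each of the 12 libraries. The homeostasis sums of 15.5 to 16.9 are mostly Bmp4, Bmp6 is the largest part in the 8 doxycycline libraries, and Grem1 is lowest in the 4 homeostasis libraries.

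The 3 ID genes, read as targets of the pathway, differed among themselves. Id2 stood at 12.1, 10.9, 9.74 and 11.1 CPM in the homeostasis libraries, 11.9, 12.6, 13.1 and 13.6 under inflammation and 15.9, 16.6, 19.6 and 18.2 in resolution. All 4 resolution libraries lay above the 8 others, and homeostasis and inflammation overlapped. Id2 rose 1.60-fold in resolution against homeostasis (0.68 ± 0.14, edgeR adjusted p = 0.000511) and 1.37-fold against inflammation (0.46 ± 0.14, edgeR adjusted p = 0.0333). The second call was lost under 10 of 24 alternative settings, among them the omission of inflammation 1, 2 or 3 or of resolution 1, 3 or 4 (edgeR adjusted p up to 0.126). With offsets for GC content and length the difference against homeostasis was 0.45 (edgeR adjusted p = 0.0043) and that against inflammation did not pass (0.29, edgeR adjusted p = 0.102). In inflammation against homeostasis the difference was 0.22 ± 0.14 (95% interval -0.08 to 0.52, edgeR adjusted p = 0.233).

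Id1 stood at 76.7, 55.1, 92.4 and 108 CPM in the homeostasis libraries, 114, 107, 91.0 and 87.5 under inflammation and 87.6, 90.8, 79.0 and 82.5 in resolution. The homeostasis libraries spread the most and enclosed all resolution libraries. Differences were 0.27 (95% interval -0.08 to 0.61, edgeR adjusted p = 0.213) in inflammation and 0.03 (-0.31 to 0.38, edgeR adjusted p = 0.874) in resolution, each against homeostasis. The first passed without homeostasis 4 (0.44, edgeR adjusted p = 0.0388) and against homeostasis 1 and 2 alone (edgeR adjusted p = 0.00699). With offsets for GC content and length, Id1 passed in both comparisons (0.41, edgeR adjusted p = 0.0118, and 0.43, edgeR adjusted p = 0.00749).

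Id3 stood at 141, 102, 175 and 197 CPM in the homeostasis libraries, 182, 175, 162 and 156 under inflammation and 155, 149, 122 and 123 in resolution. Resolution lay wholly below inflammation, without passing the test (-0.30, 95% interval -0.64 to 0.04, edgeR adjusted p = 0.212). Against homeostasis the differences were 0.13 (-0.21 to 0.47, edgeR adjusted p = 0.546) in inflammation and -0.16 (-0.50 to 0.18, edgeR adjusted p = 0.413) in resolution. With offsets for GC content and length the second value was 0.23 (edgeR adjusted p = 0.104), so its direction depends on them. The call for this gene depended on the controls, as did calls for Bmp6 and Id1. Against homeostasis 1 and 2 alone Id3 was higher in inflammation (0.48, edgeR adjusted p = 0.0254), and against homeostasis 3 and 4 alone it was lower in resolution (-0.43, edgeR adjusted p = 0.0132).

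Within homeostasis, Id1 and Id3 ran in parallel, both lowest in library 2 and highest in library 4. Their ratio per exon length was 0.813 to 0.846 in homeostasis, 0.864 to 0.970 in inflammation and 0.875 to 1.04 in resolution, so all doxycycline libraries lay above the homeostasis range. Id2 made up 2.19 to 4.11% of the summed ID transcripts in homeostasis, 2.39 to 3.32% in inflammation and 3.87 to 5.57% in resolution.

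**Figure D4:**
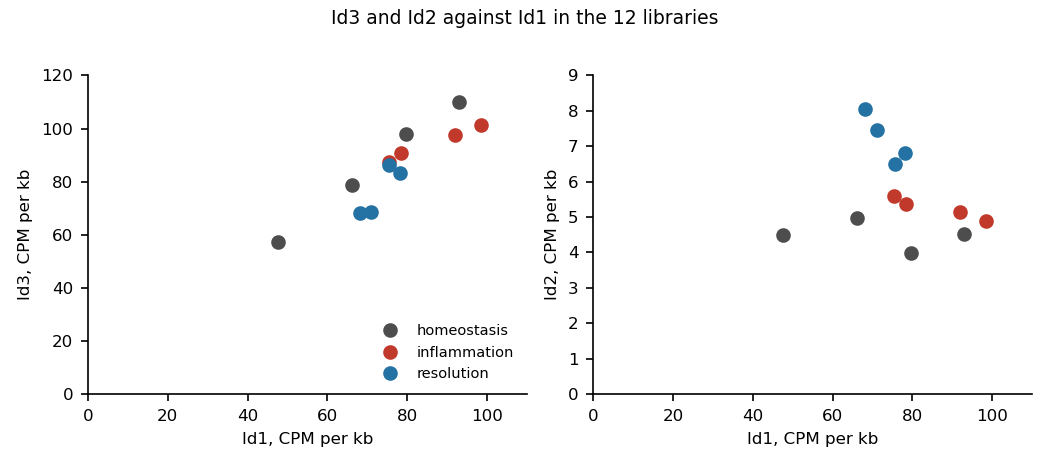
Id3 (left) and Id2 (right) against Id1 in CPM per kilobase of exon, 1 point per library and colours for the 3 groups. Id3 tracks Id1 over the 12 libraries, whereas the 4 resolution libraries stand above the others for Id2 at middling Id1.

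The 3 genes with the most similar pattern over the 12 libraries were listed for each member by Pearson's r of log2 CPM. They describe these libraries, and the group differences alone can produce high values. For Bmp4 they were Tmem183a (0.984), Ccl20 (0.980) and Cfd (0.979), for Bmp7 Erbb3 (0.976), Hapln1 (0.971) and Med17 (0.968), and for Gdf5 Ackr3 (0.968), Pmp22 (0.966) and Usp49 (0.965). Erbb3 and Hapln1 are in the lists of Schwann cell and chondrocyte markers. For Grem1 they were Pi15 (0.992), Pla2g4a (0.988) and Ptgs2 (0.987), of which the last pair encodes the phospholipase and the cyclooxygenase of prostaglandin synthesis. For Bmp6 the closest was the complement factor gene Cfb (0.948), and for Bmp2 the orphan nuclear receptor gene Nr4a3 (0.915). The closest genes were Fam171a2 (0.971) for Id1, F730043M19Rik (0.977) for Id2 and Atp6v0c (0.979) for Id3.

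Beyond the 9 members, 63 further genes of the pathway were listed by role, of which 51 were tested. In inflammation against homeostasis 11 rose and 12 fell (median log2 fold change 0.06), in resolution against homeostasis 15 rose and 8 fell (0.14; 22 and 7 with offsets for GC content and length), and in resolution against inflammation 8 rose and 1 fell (0.11). In percent of those tested this was 45.1, 45.1 and 17.6, near the shares of all genes given above.

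Of the other ligands, 4 of 10 were tested. Against homeostasis, 2 of these fell in inflammation (Bmp5 and Bmp8b) and 2 rose in resolution (Bmp5 and Bmp8a). Bmp5 stood at 7.93 ± 1.66 CPM in the homeostasis libraries, 5.03 ± 0.712 under inflammation and 18.1 ± 5.52 in resolution, and was higher in resolution than in inflammation by 1.84 ± 0.22 on the log2 scale (edgeR adjusted p = 9.27e-06). Its fall in inflammation (-0.66 ± 0.22, edgeR adjusted p = 0.0268) was lost without homeostasis 1 or 2 or without inflammation 1, 2 or 4 (edgeR adjusted p up to 0.09). Its rise against homeostasis (1.18 ± 0.22, edgeR adjusted p = 0.000143) was lost with offsets for GC content and length (0.36, edgeR adjusted p = 0.078). Bmp8a rose by 1.62 ± 0.29 in resolution against inflammation (edgeR adjusted p = 0.000738) at 2.88 ± 0.539 CPM. Bmp8b fell by 1.49 ± 0.52 in inflammation (edgeR adjusted p = 0.031) at no more than 1.05 CPM in any library, a call lost under 6 of 23 alternatives, among them the omission of homeostasis 2 or 3 or inflammation 3 or 4. The paralogs are close in sequence, so the division of reads between them is uncertain. Bmp5 and Bmp8a thus shared with Bmp6, and with Bmp4 by its less stable call, a higher level in resolution than in inflammation.

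Of 12 tested receptors and co-receptors, 3 rose and 2 fell in inflammation, and 4 rose and 2 fell in resolution, both against homeostasis. The share that passed, 41.7% in inflammation and 6 of 12 in resolution, is near the 37.2% and 53.3% of all genes. Acvr2a, counted among those that rose, was lost in both with offsets for GC content and length (0.04, edgeR adjusted p = 0.849, and 0.07, edgeR adjusted p = 0.671). Bmpr1a, a type I receptor, stood at 19.3 ± 5.07, 38.8 ± 2.55 and 54.4 ± 15.5 CPM in the order homeostasis, inflammation, resolution (1.01 ± 0.21, edgeR adjusted p = 0.000856, and 1.50 ± 0.21, edgeR adjusted p = 7.92e-06, against homeostasis). Bmpr2, the type II receptor specific to BMPs, stood at 18.5 ± 4.76, 40.1 ± 10.5 and 68.2 ± 22.9 CPM (1.12 ± 0.25, edgeR adjusted p = 0.00145, and 1.88 ± 0.25, edgeR adjusted p = 4e-06). These were smaller with offsets for GC content and length but passed, at 0.68 and 0.90 for Bmpr1a and 0.58 and 0.96 for Bmpr2. The co-receptor gene Rgma fell by 0.67 ± 0.21 and by 1.13 ± 0.22 on the log2 scale (edgeR adjusted p = 0.0178 and 0.000223). The call for Rgma in inflammation was lost without homeostasis 4 (-0.52, edgeR adjusted p = 0.073) or inflammation 1 (-0.58, edgeR adjusted p = 0.0646). The decoy receptor gene Bambi fell by 0.61 ± 0.16 in resolution (edgeR adjusted p = 0.00316). Against homeostasis 1 and 2 alone it did not pass (-0.44, edgeR adjusted p = 0.057), and with offsets for GC content and length it was -1.22.

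Several other secreted antagonists and modulators rose beside Grem1. Of 13 tested secreted antagonists and modulators, 7 rose and none fell in inflammation, and 6 rose and 1 fell in resolution, both against homeostasis, beside 19.0% and 27.5% of all genes that rose. Of the 7, Nbl1 was lost under 10 of 24 alternatives and Kcp under 7 of 24, both of them without homeostasis 2 or inflammation 1, 3 or 4, and Nbl1 also without homeostasis 1 or inflammation 2 (edgeR adjusted p up to 0.442 and 0.196). In resolution Nbl1 was lost under 6 of 24, among them the omission of homeostasis 1 or 2 or resolution 1 or 2. Chrdl1 rose in inflammation alone (1.94 ± 0.56, edgeR adjusted p = 0.011), at no more than 1.59 CPM in any library. In resolution it did not differ from homeostasis by this test (0.26 ± 0.63, edgeR adjusted p = 0.749). Against inflammation it fell (-1.68 ± 0.55, edgeR adjusted p = 0.0441), a call lost under 7 of 23 alternatives. Twsg1, a chordin-binding modulator, rose by 0.83 ± 0.21 in inflammation and by 1.58 ± 0.22 in resolution (edgeR adjusted p = 0.00493 and 5.56e-06). Fst, encoding follistatin, rose by 0.48 ± 0.12 and 0.49 ± 0.12 (edgeR adjusted p = 0.00273 and 0.00144), with 68.5 ± 4.55, 95.8 ± 3.31 and 96.2 ± 7.86 CPM. Crim1, which tethers BMPs at the cell surface, rose by 0.45 ± 0.12 and 0.49 ± 0.12 (edgeR adjusted p = 0.00822 and 0.00245), the latter 0.86 with offsets for GC content and length. The classical antagonists Nog and Chrd did not pass with all libraries and no offsets, with Nog at 1.01 ± 0.311, 1.14 ± 0.380 and 1.40 ± 0.280 CPM. Nog passed in resolution against homeostasis with the GC and length offsets (0.82, edgeR adjusted p = 0.0415), and Chrd in inflammation against homeostasis 1 and 2 alone (0.67, edgeR adjusted p = 0.038). The 1 gene that fell in resolution against homeostasis was Fstl3 (-0.60 ± 0.17, edgeR adjusted p = 0.00665), a call lost with offsets for GC content and length (-0.26, edgeR adjusted p = 0.0698).

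Among the genes inside the cell, 2 of 4 signalling SMAD genes fell in inflammation and none passed in resolution, both against homeostasis. Smad4 fell by 0.50 ± 0.13 in inflammation (edgeR adjusted p = 0.00516) and Smad1 by 0.44 ± 0.14 (edgeR adjusted p = 0.0235). Both calls were lost with offsets for GC content and length (-0.28, edgeR adjusted p = 0.0535, and -0.27, edgeR adjusted p = 0.109), where Smad9 passed in resolution against homeostasis (-0.49, edgeR adjusted p = 0.0157). Smad1 was also lost without homeostasis 1 or 2 or inflammation 1 or 2 (edgeR adjusted p up to 0.0981). In resolution against homeostasis Smad5 stood near the threshold (0.52, edgeR adjusted p = 0.057) and passed under several alternatives, among them DESeq2 (adjusted p = 0.0482) and omission of resolution 2 (0.69, edgeR adjusted p = 0.00751). Smad5 was higher in resolution than in inflammation (0.74 ± 0.22, edgeR adjusted p = 0.0309), a call lost under 6 of 24 alternatives. Smurf2, a ubiquitin ligase that targets SMADs and receptors, rose in resolution by 1.22 ± 0.19 against homeostasis (edgeR adjusted p = 2.67e-05) and by 0.86 ± 0.19 against inflammation (edgeR adjusted p = 0.00403). The related ligase gene Smurf1 fell in inflammation against homeostasis (-0.35 ± 0.12, edgeR adjusted p = 0.0289), a call lost under 11 of 24 alternatives. The feedback inhibitors Smad6 and Smad7, themselves BMP targets, passed in no comparison without offsets, with log2 fold changes from -0.07 to 0.21. Both passed in resolution against homeostasis once offsets for GC content and length were used (0.48, edgeR adjusted p = 0.000269, and 0.42, edgeR adjusted p = 0.0218), and Smad6 also in inflammation (0.30, edgeR adjusted p = 0.0125).

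Of 9 other targets, 1 rose and 4 fell in each comparison against homeostasis (55.6%, beside 37.2% and 53.3% of all genes). Dlx5, a homeobox factor of bone formation, stood at 3.59 ± 1.25, 0.912 ± 0.447 and 0.457 ± 0.287 CPM (-1.98 ± 0.38, edgeR adjusted p = 0.000488, and -2.96 ± 0.42, edgeR adjusted p = 8.64e-06). Hey1 fell by 1.12 ± 0.27 in inflammation (edgeR adjusted p = 0.00314) and Dlx3 by 1.39 ± 0.35 (edgeR adjusted p = 0.00394). Dlx3 was higher in resolution than in inflammation by 1.65 ± 0.35 (edgeR adjusted p = 0.00286). Other calls against homeostasis were less stable. Msx1 fell in inflammation (-0.70, edgeR adjusted p = 0.0171) and resolution (-0.59, edgeR adjusted p = 0.0289), lost under 4 and 6 of 24 alternatives. In resolution Hey1 (-0.81, edgeR adjusted p = 0.0158) was lost under 4 of 24 and Sp7 (-1.43, edgeR adjusted p = 0.0149) under 3 of 24. The gene that rose was Id4, the fourth ID gene, at 6.18 ± 0.559, 10.2 ± 1.76 and 11.6 ± 0.983 CPM (0.71 ± 0.16, edgeR adjusted p = 0.00202, and 0.90 ± 0.16, edgeR adjusted p = 0.000132). Both Id4 calls were lost with offsets for GC content and length (0.32, edgeR adjusted p = 0.119, and 0.18, edgeR adjusted p = 0.342).

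The 8 osteoblast markers, which include Runx2 and Sp7 of the target list, summed to 1227 to 1400 CPM in homeostasis, 2743 to 3541 in inflammation and 2684 to 3879 in resolution. Nearly all of it was Spp1. Of 5 tested, 3 rose and none fell in inflammation, and 3 rose and 1 fell in resolution, both against homeostasis. Alpl stood at 8.21 ± 2.15, 31.4 ± 2.50 and 31.7 ± 6.26 CPM in that order of groups. Ibsp was at 0 in both doxycycline groups, but it held only 23 counts over the homeostasis libraries and was not tested. The part of these markers in the target results was not tested.

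**Figure D5:**
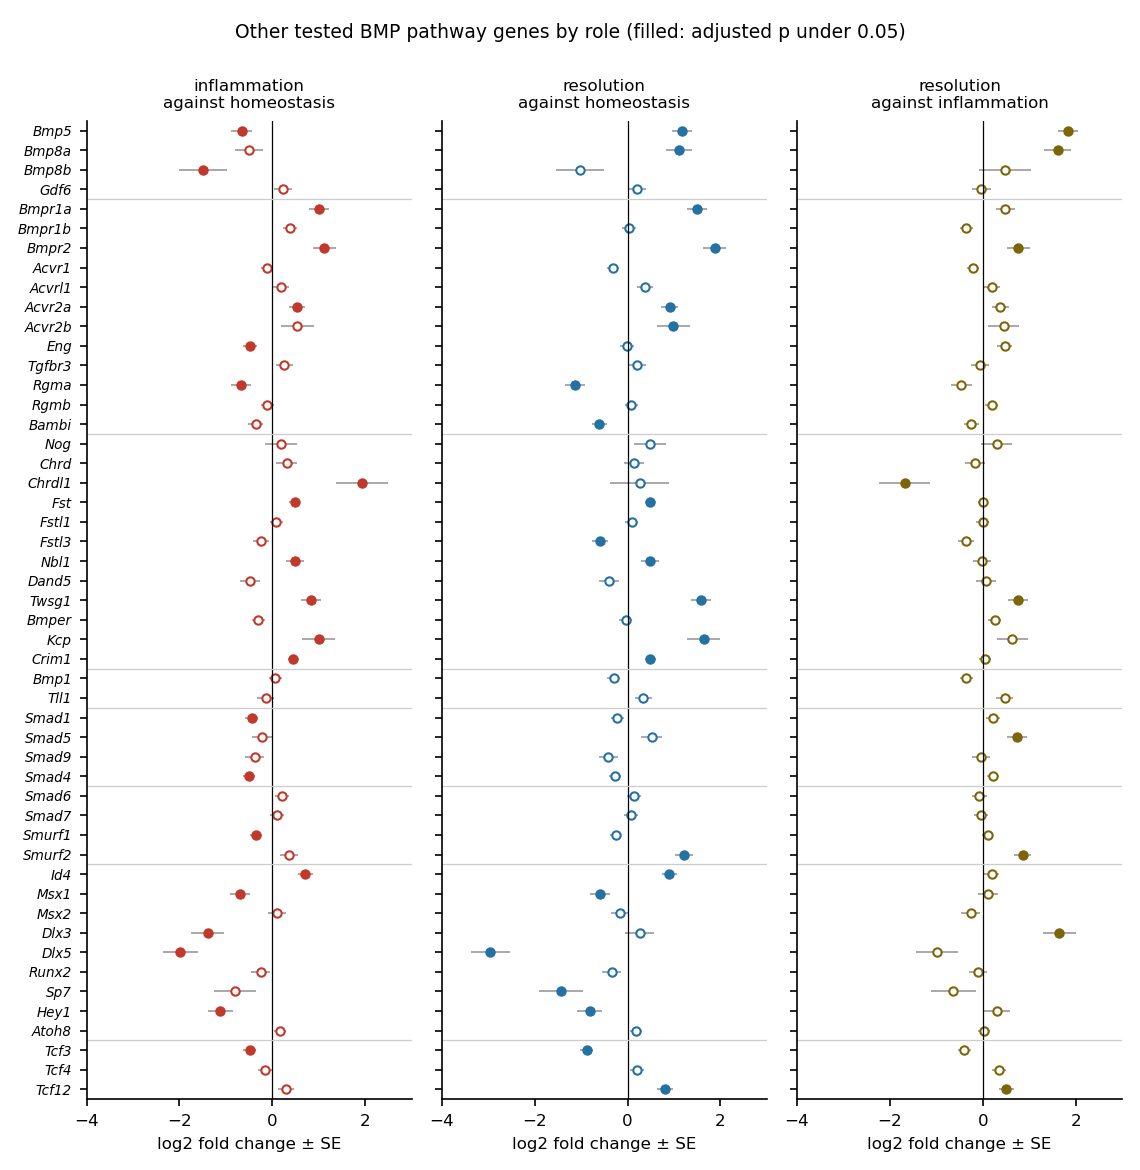
Log2 fold change ± SE of the other tested pathway genes in the 3 comparisons (1 gene is not shown), ordered by role with grey lines between roles and filled where the edgeR adjusted p was under 0.05. Filled points of the secreted antagonists and modulators lie to the right of 0 in inflammation, and Bmp5, Bmp8a, Dlx3 and Smurf2 stand out to the right in resolution against inflammation.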

How the data were processed

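The authors deposited 1 table of expected counts (estimated read counts per gene symbol, not normalized), with reads placed on GRCm38.p3 (from the submitters' processing notes). The sources used here name no aligner, counting tool, strand setting or annotation. Of the values, 1.43% were not whole, none of them in the 9 genes. Entries without a value (13) were left out, repeated entries of 34 symbols were summed, and counts were rounded. The default filter of edgeR 4.0.16 (R 4.3.3) left 15049 genes. Libraries were scaled by TMM, and all 12 were fitted with group as the only term by edgeR's quasi-likelihood F test (robust), with Benjamini-Hochberg adjustment and a threshold of 0.05. Levels are TMM-normalized CPM. Lengths are unions of exons in GENCODE (GRCm38). The members, gene lists and naming rule (smallest adjusted p per role) were chosen with earlier results of these data known. The fit was tested on simulated data. Alternatives were DESeq2 1.42.0, limma-voom (limma 3.58.1), other scalings and filters, a replicate block, offsets for GC content and length, subsets of controls and omission of each library. Values of 1 gene of the antagonist list are not reported here.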

Additional observations from a re-analysis of the deposited data

Results flagged for a closer look

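Bmp2 in inflammation library 2 stood at 1.06 CPM (26 counts), below the other 3 libraries of that group at 2.28 to 2.40 CPM. The gap to the nearest library made up 0.914 of the group's whole range, above Dixon's 95% critical value for 4 samples. It was the only such value among the 27 sets of 4 libraries examined (9 genes in 3 groups), and chance alone gives about 1 in 20. Without this library the difference between inflammation and homeostasis did not pass either.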

How the results depend on the processing

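Of the 27 results (9 genes in 3 comparisons), 17 kept their call under each of the alternatives tried, 24 for each result (23 for Bmp7 in resolution against inflammation), and none reversed in sign among those called. The falls of Bmp4, Bmp7 and Gdf5 and the rise of Grem1 against homeostasis were among the 17, as was the rise of Id2 in resolution against homeostasis. With offsets for GC content and length, 8 of the 9 genes passed in resolution against homeostasis (51.3% of all genes did), Bmp2 (0.90), Bmp6 (0.71) and Id1 (0.43) in addition; the cause was not tested. With 1 library left out at a time, the genes called in resolution against inflammation ran from 1242 to 4191 (2431 with all; 1443 and 1351 without inflammation 1 and 2, 1584, 4191, 1299 and 1242 without resolution 1 to 4). The members called there ran from 1 to 3 (1 without inflammation 3, resolution 1 or resolution 4) and the other pathway genes from 4 to 15. In inflammation against homeostasis these ranges were 4476 to 6076, 4 to 5 and 16 to 25, and in resolution against homeostasis 7090 to 8510, 5 to 6 and 21 to 29. Replicate numbers are shared between groups. Deviations from the group means correlated with r from -0.23 to 0.21 over the 12 same-numbered pairs of libraries. Over the 36 differently numbered pairs r ran from -0.34 to 0.35. The labels do not say what a shared number means, and these values cannot settle whether such libraries share an animal, culture or batch. With a replicate block, 5053, 7589 and 1898 genes passed in the 3 comparisons, with 4, 5 and 2 of the 9 members and 21, 23 and 7 of the other pathway genes. Depth limited Bmp7 most, with 0 to 15 counts in each doxycycline library, and then Gdf5, with 4 to 16.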

Other observations

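The E proteins, the basic helix-loop-helix partners that ID proteins bind, were measured beside the ID genes. Tcf3, which encodes E2A, stood at 97.1 ± 17.6 CPM in the homeostasis libraries, 69.3 ± 5.60 under inflammation and 52.7 ± 7.43 in resolution. It fell by 0.49 ± 0.14 in inflammation (edgeR adjusted p = 0.0118, lost without homeostasis 4, at -0.34 and edgeR adjusted p = 0.0589) and by 0.88 ± 0.14 in resolution (edgeR adjusted p = 4.41e-05), both on the log2 scale. Tcf12 moved the other way in resolution, from 35.4 ± 6.80 to 61.8 ± 13.9 CPM (0.80 ± 0.17, edgeR adjusted p = 0.00065; 0.35 and edgeR adjusted p = 0.0134 with offsets for GC content and length). Tcf4 did not pass with all libraries and no offsets, but did in resolution against homeostasis with those offsets (0.31, edgeR adjusted p = 0.0187) and without resolution 2 (0.33, edgeR adjusted p = 0.0454). It stood at 49.5 ± 7.08, 44.6 ± 2.82 and 57.4 ± 9.80 CPM.

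Of the listed ligands, Bmp3, Bmp10, Bmp15, Gdf2, Gdf7 and Gdf10 did not pass the filter on low counts. Bmp10 was at 0 in all 12 libraries. Among antagonists, Chrdl2, Sost, Sostdc1 and Cer1 did not pass it, and Sostdc1 was at 0 throughout. Gdf6, a close relative of Gdf5, was tested and stood at 4.15 ± 0.968, 4.82 ± 0.445 and 4.72 ± 0.574 CPM over the 3 groups in the same order. Its log2 fold changes against homeostasis were 0.23 and 0.20 (edgeR adjusted p = 0.398 and 0.432), beside falls of 2.91 and 3.21 for Gdf5.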
